A study of Homo sapiens with 9 samples.

Results

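The expression of 37 genes of cholesterol and fatty acid synthesis was examined in VCaP cells after knockdown of the lncRNA *IGF1R-AS1*. The genes were chosen by name, with earlier results of these data known, out of 19918 gene symbols in the count tables. They comprise 5 regulators of sterol sensing, 18 sterol synthesis enzymes, 1 sterol carrier, 10 enzymes of fatty acid synthesis and activation, and 3 genes of sterol efflux and sterol-responsive turnover. All 37 passed the filter on low counts and were among the 12810 genes tested.

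VCaP is an established epithelial prostate cancer cell line that expresses the androgen receptor. Cells of all 3 groups were transfected in suspension (reverse transfection), with siRNA at 100 pmol, and were collected after 72 h. The siRNAs si025 and si033 differ from each other and target exon 1 of *IGF1R-AS1*, which lies antisense to *IGF1R*. The control group, whose genotype is given as WT, received a control siRNA, so all groups had been transfected. Each group held 3 libraries of stranded total RNA, made from 1.3 µg of RNA each. The labels do not say whether the libraries came from separate cultures, so *p* values measure only the spread between these libraries. All values come from 1 cell line.

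Cholesterol is built from acetyl-CoA through the mevalonate pathway, which leads to squalene and lanosterol, and a series of further steps then converts lanosterol to cholesterol. Fatty acid synthesis starts from the same precursor. Both branches are controlled by the SREBP transcription factors, encoded by *SREBF1* and *SREBF2*. SCAP carries them out of the endoplasmic reticulum when sterols are scarce, and INSIG proteins hold SCAP back when sterols are abundant. When sterols accumulate, the nuclear LXR receptors raise sterol exporters. In prostate cells, androgens are known to raise genes of both branches.

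Promoter sequence was examined for the members because many of them are known SREBP targets. Windows of 300 bases, 250 before to 50 after an annotated start, came from RefSeq (GRCh38.p14) and covered 32 of the 37 members in 47 windows. No window was given for *ACAT2*, *FDFT1*, *SQLE*, *FASN* and *ABCG1*. Both strands were searched for TCACNCCAC, the core of the sterol regulatory element, for CCAAT, which the SREBP partner NF-Y binds, and for the E-box CACGTG. The element TCACNCCAC was found in windows of *SREBF2* and *ACSL1*, and in 0.982% of the windows of all tested genes. CCAAT was found in windows of 24 of the 32 members and in 59.6% of member windows, against 34.5% of the windows of all tested genes. CACGTG was found in 7 of the 47 member windows (14.9%), which belong to 6 members, against 9.01% of the windows of all tested genes. These matches are descriptions of letters and not binding sites.

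The 250 bases before the start are shown for *SREBF2* and for the 4 sterol enzymes with a window whose change reached 1.5-fold with si025. Of these, *SREBF2*, *HMGCS1*, *FDPS* and *MSMO1* were lower and *TM7SF2* was higher. Capitals mark TCACNCCAC or CCAAT in either orientation. The windows lie on chr22:41832855-41833104 (plus strand), chr5:43313413-43313662 (minus), chr1:155308616-155308865 (plus), chr4:165327419-165327668 (plus) and chr11:65111622-65111871 (plus), respectively.
SREBF2: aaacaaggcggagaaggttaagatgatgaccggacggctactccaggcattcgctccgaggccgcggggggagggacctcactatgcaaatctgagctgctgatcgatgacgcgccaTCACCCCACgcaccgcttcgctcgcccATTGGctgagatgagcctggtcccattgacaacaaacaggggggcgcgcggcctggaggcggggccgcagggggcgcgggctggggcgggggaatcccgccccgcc
HMGCS1: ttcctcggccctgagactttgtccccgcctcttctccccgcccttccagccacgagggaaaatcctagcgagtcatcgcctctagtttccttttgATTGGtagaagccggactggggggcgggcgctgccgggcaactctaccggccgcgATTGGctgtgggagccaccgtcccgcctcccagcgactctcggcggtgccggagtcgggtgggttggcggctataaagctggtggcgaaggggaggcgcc
FDPS: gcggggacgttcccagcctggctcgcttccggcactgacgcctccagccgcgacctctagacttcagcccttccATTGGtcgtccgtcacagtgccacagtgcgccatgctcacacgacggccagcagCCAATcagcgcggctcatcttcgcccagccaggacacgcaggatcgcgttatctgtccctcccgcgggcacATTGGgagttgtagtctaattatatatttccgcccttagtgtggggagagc
MSMO1: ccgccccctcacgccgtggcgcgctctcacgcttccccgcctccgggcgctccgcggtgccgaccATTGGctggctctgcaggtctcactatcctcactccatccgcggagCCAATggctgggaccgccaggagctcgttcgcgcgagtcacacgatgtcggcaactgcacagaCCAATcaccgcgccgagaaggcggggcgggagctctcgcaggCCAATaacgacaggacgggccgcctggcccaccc
TM7SF2: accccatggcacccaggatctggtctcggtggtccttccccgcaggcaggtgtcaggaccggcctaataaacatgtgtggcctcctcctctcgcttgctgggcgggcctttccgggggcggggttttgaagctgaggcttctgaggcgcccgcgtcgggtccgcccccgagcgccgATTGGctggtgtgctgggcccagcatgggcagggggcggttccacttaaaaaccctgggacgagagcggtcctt

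In the *SREBF2* window the element began 133 bases before the start, and a CCAAT box began 106 bases before the start. *HMGCS1* held 2 CCAAT boxes, *FDPS* 3, *MSMO1* 4 and *TM7SF2* 1. CCAAT was thus found both before the genes that fell and before the gene that rose with si025. The windows of *SREBF1*, *SCAP*, *INSIG2*, *PMVK*, *CYP51A1*, *ELOVL6*, *FADS1* and *ABCA1* held no CCAAT. Among them, *CYP51A1* was called lower with both siRNAs. A relation between CCAAT and the changes of the members was not tested.

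Library totals ranged from 11649811 to 28492259 counts. Replicates within a group differed by more than counting noise (chi-square per degree of freedom 1.72 to 5.09), so each library was counted on its own. Of the 37 members, 32 had at least 100 counts in every library, and *ACACA* was the lowest, with 26 counts in its lowest library. All 10 luminal prostate markers on the list used were expressed, among them *KLK2* at 1938 CPM and *FOXA1* at 732 CPM in control cells. The immune gene *CD3E* and the endothelial genes *CDH5* and *CLDN5* had no count in any library.

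Levels of different genes were compared per length, as RPKM, in control cells. *SCD*, the desaturase that makes monounsaturated fatty acids, was the highest at 322 ± 4.98 RPKM (SD, n = 3). *FASN*, the fatty acid synthase, followed at 216 ± 16.2 RPKM and *TM7SF2*, a sterol reductase, at 151 ± 4.22 RPKM. *INSIG1*, *SQLE*, *FDPS* and *HMGCS1* lay between 92.7 and 108 RPKM. *INSIG1* (108 ± 0.959) and *SQLE* (106 ± 1.79) did not differ beyond their spread, and neither did *CYP51A1* (64.6 ± 2.30), *PMVK* (64.5 ± 1.14) and *ACAT2* (62.5 ± 2.30). The sterol exporter *ABCA1* (0.403 ± 0.040) and the acetyl-CoA carboxylase gene *ACACA* (0.403 ± 0.0797) were the lowest. Levels of *FDPS*, *IDI1*, *CYP51A1*, *HSD17B7* and *SCD* are less certain, because GENCODE names 8, 3, 3, 1 and 1 pseudogene copies of them, and the counting options in the file headers do not include read pairs that map to several places. The share of such pairs was not measured for any member, so other levels, such as that of *ACACA*, may also be too low.

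**Figure D1:**
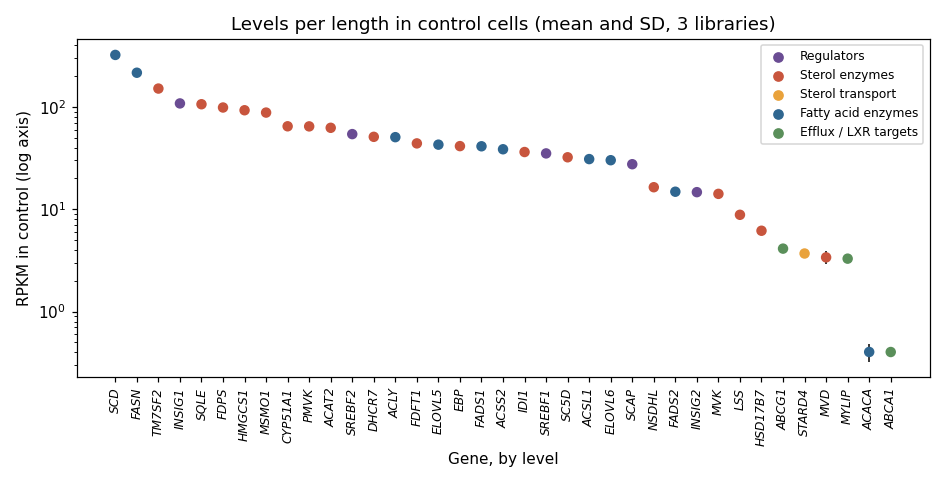
Level per length of each member in control cells, as mean RPKM with SD over 3 libraries on a log axis, ordered from high to low and coloured by branch. *SCD* (322 RPKM) and *FASN* (216 RPKM) lead, 13 of the 18 sterol enzymes lie between 32.2 and 151 RPKM, and *ACACA* and *ABCA1* lie near 0.403 RPKM.

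With si025, 26 of the 37 members were called (70.3%), 9 higher and 17 lower, where 61.7% of all tested genes were called, 32.9% higher and 28.8% lower. With si033, 29 members were called (78.4%), 3 higher and 26 lower, where 54.8% of all genes were called, 26.9% higher and 27.8% lower. The median log2 fold change of the members was -0.06 with si025 and -0.26 with si033, against 0.02 and 0.00 over all genes. At a change of at least 1.5-fold, 7 members were called with si025 (1 higher and 6 lower), where 19.3% of all genes were (13.4% higher and 5.89% lower). With si033, 2 members were called at that fold, both lower, where 14.7% of all genes were (8.56% higher and 6.17% lower). *INSIG2* and *ABCG1* were these 2, and under offsets for gene length and GC content, or without si033 replicate 1 or control replicate 3, the count was 1. Both comparisons share the control libraries. In bulk RNA, a lower level per cell and fewer cells with the transcript cannot be told apart.

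The regulators were examined first. *SREBF2*, the SREBP gene that mainly drives sterol synthesis (chromosome 22, 41833079 to 41907308), was at 405, 412 and 391 CPM in the control libraries, 257, 238 and 227 CPM in those of si025 and 352, 342 and 351 CPM in those of si033. All knockdown libraries lay below all control libraries, and si025 lay below si033. Relative to control, *SREBF2* was at a log2 fold change of -0.75 with si025 (SE 0.05, adjusted *p* = 2.08e-12) and -0.21 with si033 (SE 0.04, adjusted *p* = 0.000421). *SREBF1*, whose products mainly drive fatty acid synthesis, was at 184, 188 and 178 CPM in the control libraries, 197, 198 and 186 CPM in those of si025 and 173, 152 and 162 CPM in those of si033. It was lower with si033 (-0.17, SE 0.05, adjusted *p* = 0.00503), whereas the si025 libraries overlapped the controls (0.08, adjusted *p* = 0.139). Under offsets for gene length and GC content the si025 value of *SREBF1* turned to -0.09 (adjusted *p* = 0.0152).

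The INSIG genes behaved differently from each other. *INSIG1*, itself a well known SREBP target (chromosome 7, 155297776 to 155310235), was at 338, 339 and 344 CPM in the control libraries, 282, 281 and 301 CPM in those of si025 and 265, 289 and 282 CPM in those of si033. It was lower with si025 (-0.24, SE 0.04, adjusted *p* = 4.92e-05) and with si033 (-0.29, SE 0.04, adjusted *p* = 7.25e-06), and the siRNAs overlapped (difference 0.05, adjusted *p* = 0.369). *INSIG2*, which also retains SCAP (chromosome 2, 118088418 to 118110031), was at 41.2, 37.6 and 43.1 CPM in control cells, 57.9, 57.5 and 61.1 CPM with si025 and 23.5, 30.0 and 26.5 CPM with si033. The 3 groups did not overlap, with si025 above control (0.53, SE 0.07, adjusted *p* = 3.51e-07) and si033 below it (-0.61, SE 0.07, adjusted *p* = 2.32e-07). Within a library, the ratio of *INSIG1* to *INSIG2* per length, which does not depend on scaling between libraries, was 7.38 ± 0.475 in control cells, 4.30 ± 0.0285 with si025 and 9.24 ± 0.730 with si033 (SD, n = 3 each). The same ratio of *SREBF2* to *SREBF1* was 1.54 ± 0.00512, 0.870 ± 0.0377 and 1.51 ± 0.0744, so that *SREBF1* exceeded *SREBF2* per length in the si025 libraries alone among the groups. These ratios were chosen after the values had been seen. *SCAP* was slightly higher with si025 (0.14, adjusted *p* = 0.00892) but not under offsets for gene length and GC content (-0.02, adjusted *p* = 0.632), and was at 0.05 with si033 (adjusted *p* = 0.361).

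Of the 18 sterol synthesis enzymes, 12 were lower and 1 was higher with si025, and 11 were lower and 1 was higher with si033, where 28.8% and 27.8% of all genes were lower. The median log2 fold change was -0.38 with si025 and -0.26 with si033. *HMGCS1*, which makes HMG-CoA at the entry of the mevalonate pathway (chromosome 5, 43287470 to 43313512), changed most. It was at 563, 587 and 571 CPM in the control libraries, 254, 249 and 264 CPM in those of si025 and 377, 402 and 389 CPM in those of si033. The groups were fully separated, and the values against control were -1.17 with si025 (SE 0.04, adjusted *p* = 3.99e-16) and -0.56 with si033 (SE 0.04, adjusted *p* = 7.83e-11). *ACAT2*, the cytosolic thiolase that supplies HMGCS1, was lower with si025 (-0.34, adjusted *p* = 4.9e-06) and at -0.05 with si033 (adjusted *p* = 0.46).

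The kinases and the decarboxylase of the mevalonate pathway did not follow *HMGCS1*. *MVK* was at -0.06 and -0.03 and *MVD* at 0.04 and 0.12 with si025 and si033, and none of these was called (adjusted *p* from 0.408 to 0.798). Under offsets for gene length and GC content, *MVK* was called lower with si025 (-0.12, adjusted *p* = 0.0433). *PMVK*, the second kinase, was higher with si033 (0.24, SE 0.06, adjusted *p* = 0.00229) and at 0.09 with si025 (adjusted *p* = 0.241). *IDI1*, the isomerase that follows, was at -0.05 with si025 (adjusted *p* = 0.429) and lower with si033 (-0.15, adjusted *p* = 0.0165), a call lost without si033 replicate 1 or 3 or control replicate 1 or 3 (adjusted *p* from 0.0719 to 0.0899).

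Genes from farnesyl diphosphate to lanosterol were lower with both siRNAs. *FDPS*, which makes farnesyl diphosphate (chromosome 1, 155308748 to 155320666), was at 159, 166 and 161 CPM in control cells, 88.9, 97.7 and 89.6 CPM with si025 and 114, 113 and 118 CPM with si033. The changes were -0.82 (SE 0.05, adjusted *p* = 1.14e-12) and -0.50 (SE 0.05, adjusted *p* = 6.86e-09). *FDFT1*, the squalene synthase, fell by nearly the same amount with si025 (-0.52) and si033 (-0.49), and the difference of -0.03 was not called (SE 0.04, adjusted *p* = 0.59). *SQLE*, the squalene epoxidase (chromosome 8, 124998478 to 125022283), was at 354, 355 and 344 CPM in the control libraries, 207, 221 and 224 CPM in those of si025 and 249, 261 and 256 CPM in those of si033. Every knockdown library was below every control library, with changes of -0.69 (SE 0.04, adjusted *p* = 2.59e-12) and -0.46 (SE 0.04, adjusted *p* = 4.29e-09). *LSS*, the lanosterol synthase, was lower by smaller amounts (-0.18, adjusted *p* = 0.035, and -0.25, adjusted *p* = 0.00593). The *LSS* call with si025 was lost without control replicate 1 or 2 or si025 replicate 2 or 3 (adjusted *p* from 0.102 to 0.187) and under upper quartile scaling (0.0688), and that with si033 without control replicate 1 (0.058). The si025 value of *LSS* was larger without control replicate 3 (-0.29, adjusted *p* = 0.00151) and under offsets for gene length and GC content (-0.31, adjusted *p* = 9.4e-05).

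The steps from lanosterol to cholesterol were less uniform. *MSMO1*, a methylsterol oxidase (chromosome 4, 165327666 to 165343164), was at 211, 212 and 214 CPM in the control libraries, 123, 127 and 132 CPM in those of si025 and 155, 175 and 159 CPM in those of si033. It was lower with si025 (-0.74, SE 0.05, adjusted *p* = 7.67e-12) and si033 (-0.38, SE 0.05, adjusted *p* = 4.44e-07). *CYP51A1* (-0.46 and -0.29), *NSDHL* (-0.46 and -0.34) and *HSD17B7* (-0.50 and -0.36), which act beside it in removing methyl groups, were also called lower with si025 and si033. The *HSD17B7* call with si033 was lost without si033 replicate 3 (adjusted *p* = 0.13). *EBP*, a sterol isomerase, was lower with si025 (-0.42, adjusted *p* = 3.42e-05) and at -0.16 with si033 (adjusted *p* = 0.0639). That value was called in 7 of 16 alternatives, among them the fit without si033 replicate 2 (-0.25, adjusted *p* = 0.00542). The last reductase, *DHCR7*, was lower with si025 (-0.18, adjusted *p* = 0.00375) and at 0.01 with si033 (adjusted *p* = 0.856). *SC5D*, a desaturase of the late pathway, was called with neither siRNA (0.06 and 0.10), although its si033 value was called without si033 replicate 1 (0.16, adjusted *p* = 0.0142), under upper quartile scaling (0.13, adjusted *p* = 0.0308) and under offsets for gene length and GC content (0.15, adjusted *p* = 8.94e-05). Under these offsets *SC5D* was also called higher with si025 (0.08, adjusted *p* = 0.0196).

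*TM7SF2* was the only sterol enzyme among the members that was called on opposite sides of control with the siRNAs. It encodes a sterol reductase that acts after CYP51A1 (chromosome 11, 65111854 to 65116235) and was at 238, 250 and 238 CPM in the control libraries, 398, 426 and 405 CPM in those of si025 and 203, 199 and 203 CPM in those of si033. The si025 libraries were all above control (0.76, SE 0.04, adjusted *p* = 3.93e-13) and the si033 libraries all below it (-0.26, SE 0.04, adjusted *p* = 2.05e-05). Of its exon bases, 0.44% are shared on the same strand with *VPS51*, and the counting options do not include read pairs that overlap more than 1 gene.

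**Figure D2:**
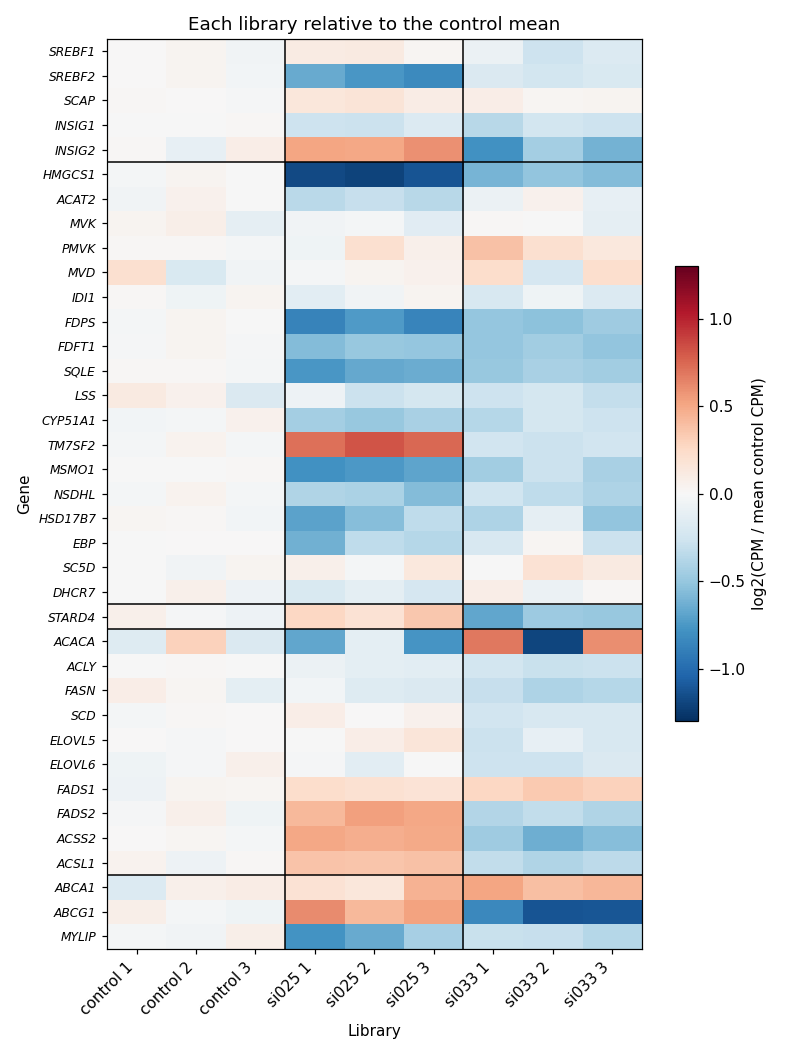
Log2 ratio of the CPM of each member in each of 9 libraries to the control mean of that gene, with lines between groups and between branches (from the top, regulators, sterol enzymes, sterol carrier, fatty acid enzymes, and efflux genes). Blue is lower and red is higher than control. Most sterol enzymes are blue with both siRNAs, whereas *INSIG2*, *TM7SF2*, *STARD4*, *FADS2*, *ACSS2*, *ACSL1* and *ABCG1* are red with si025 and blue with si033.

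Of the 10 genes of fatty acid synthesis and activation, 4 were higher and 2 lower with si025, whereas 1 was higher and 8 were lower with si033. The 60% called with si025 is near the 61.7% of all genes, and the 90% called with si033 compares with 54.8%. The median log2 fold change was 0.07 with si025 and -0.26 with si033. *SCD*, the most abundant member (chromosome 10, 100347015 to 100364831), was at 1729, 1780 and 1771 CPM in the control libraries, 1869, 1764 and 1825 CPM in those of si025 and 1477, 1523 and 1526 CPM in those of si033. The si025 libraries overlapped the controls (0.05, SE 0.04, adjusted *p* = 0.269), and the si033 libraries lay below them (-0.22, SE 0.04, adjusted *p* = 2.2e-05). The core synthesis genes *ACLY*, which makes acetyl-CoA from citrate, and *FASN* were lower with si033 (-0.27 and -0.36, adjusted *p* of 7.11e-06 and 2.26e-06). With si025 they were lower by -0.11 (adjusted *p* = 0.0219) and -0.13 (adjusted *p* = 0.0303). These small si025 changes were not called under upper quartile normalization (adjusted *p* = 0.0605 and 0.0794), nor without si025 replicate 3 (0.0941 and 0.154) or control replicate 2 (0.0581 and 0.0963), and that of *FASN* was also lost without si025 replicate 2 (0.0814) or control replicate 1 (-0.08, adjusted *p* = 0.204). Under offsets for gene length and GC content the change of *FASN* with si025 was larger, at -0.32 (adjusted *p* = 2.52e-10), and its difference between the siRNAs was smaller, at 0.07 (adjusted *p* = 0.0412) in place of 0.23.

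The elongases *ELOVL5* (-0.20, adjusted *p* = 0.00205) and *ELOVL6* (-0.24, adjusted *p* = 0.000416) were lower with si033, and their si025 values of 0.08 and -0.06 were not called (adjusted *p* of 0.15 and 0.351). Without si025 replicate 1, *ELOVL5* was called higher with si025 (0.12, adjusted *p* = 0.0466).

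The desaturases of polyunsaturated fatty acids, *FADS1* and *FADS2*, are neighbours on chromosome 11 (61799625 to 61817057 on the minus strand and 61816203 to 61867354 on the plus strand). *FADS2* was at 56.6, 59.8 and 55.0 CPM in control cells, 76.7, 83.0 and 80.9 CPM with si025 and 43.8, 45.7 and 43.5 CPM with si033. It was higher with si025 (0.50, SE 0.05, adjusted *p* = 2.36e-08) and lower with si033 (-0.37, SE 0.06, adjusted *p* = 7.82e-06). *FADS1* was higher with si025 (0.19, adjusted *p* = 0.000506) and also with si033 (0.30, adjusted *p* = 3.45e-06). The ratio of *FADS1* to *FADS2* per length was 2.78 ± 0.143 in control cells, 2.27 ± 0.128 with si025 and 4.43 ± 0.0648 with si033.

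Of the members, *ACSS2* and *ACSL1* activate acetate and fatty acids, and both lay on opposite sides of control with the siRNAs. Not all related genes outside the 37 did so. *ACSS2*, which makes acetyl-CoA from acetate (chromosome 20, 34874942 to 34927966), was at 127, 129 and 124 CPM in the control libraries, 179, 176 and 178 CPM in those of si025 and 91.9, 81.8 and 86.1 CPM in those of si033. It was higher with si025 (0.49, SE 0.05, adjusted *p* = 3.72e-09) and lower with si033 (-0.55, SE 0.05, adjusted *p* = 1.85e-09). *ACSL1*, which activates long-chain fatty acids (chromosome 4, 184755595 to 184826593), was at 161, 149 and 157 CPM in the control libraries, 201, 199 and 202 CPM in those of si025 and 124, 118 and 123 CPM in those of si033. It too was higher with si025 (0.37, SE 0.04, adjusted *p* = 1.27e-07) and lower with si033 (-0.35, SE 0.05, adjusted *p* = 6.93e-07).

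*ACACA*, the rate-setting carboxylase of fatty acid synthesis, had few counts. It was at 4.10, 5.65 and 4.06 CPM in control cells, 2.88, 4.22 and 2.70 CPM with si025 and 7.42, 2.01 and 7.01 CPM with si033. How many of its read pairs map to several places, and so were left out, was not measured. With si033, replicate 2 lay below every other library and replicates 1 and 3 lay above every other library. Neither comparison with control was called (-0.47, SE 0.29, adjusted *p* = 0.162, and 0.32, SE 0.27, adjusted *p* = 0.315). Without si033 replicate 2, both of these were called, at -0.47 (adjusted *p* = 0.0293) with si025 and 0.66 (adjusted *p* = 0.00374) with si033. The si025 value of *ACACA* was also called with no filter on low counts (adjusted *p* = 0.0184) and in a fit of the compared groups alone (adjusted *p* = 0.0248).

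*STARD4*, a carrier of cholesterol between membranes (chromosome 5, 111496033 to 111512597), was at 21.6, 20.4 and 19.7 CPM in control cells, 24.8, 23.4 and 26.4 CPM with si025 and 12.9, 14.9 and 14.7 CPM with si033. It was higher with si025 (0.28, SE 0.07, adjusted *p* = 0.00165) and lower with si033 (-0.52, SE 0.08, adjusted *p* = 6.72e-06).

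The efflux genes did not move together. *ABCG1*, a sterol exporter and LXR target (chromosome 21, 42199689 to 42304389), was at 47.1, 44.0 and 43.2 CPM in control cells, 68.4, 59.7 and 64.2 CPM with si025 and 25.1, 20.5 and 20.7 CPM with si033. The groups did not overlap, with si025 above control (0.52, SE 0.06, adjusted *p* = 3.14e-07) and si033 below it (-1.03, SE 0.07, adjusted *p* = 5.86e-11). *ABCA1*, the other exporter and LXR target, was higher with si033 (0.42, SE 0.13, adjusted *p* = 0.00803) and at 0.26 with si025 (adjusted *p* = 0.0852), which was called without si025 replicate 2 (0.33, adjusted *p* = 0.0467). *MYLIP*, an LXR target that marks lipoprotein receptors for degradation (chromosome 6, 16129086 to 16151015), was at 10.4, 10.2 and 11.1 CPM in control cells, 6.15, 6.70 and 7.87 CPM with si025 and 8.65, 8.59 and 8.18 CPM with si033. All knockdown libraries were below control, with changes of -0.60 (SE 0.11, adjusted *p* = 4.84e-05) and -0.34 (SE 0.11, adjusted *p* = 0.0108). The latter was lost without si033 replicate 3 (adjusted *p* = 0.0611) or control replicate 3 (0.0759).

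**Figure D3:**
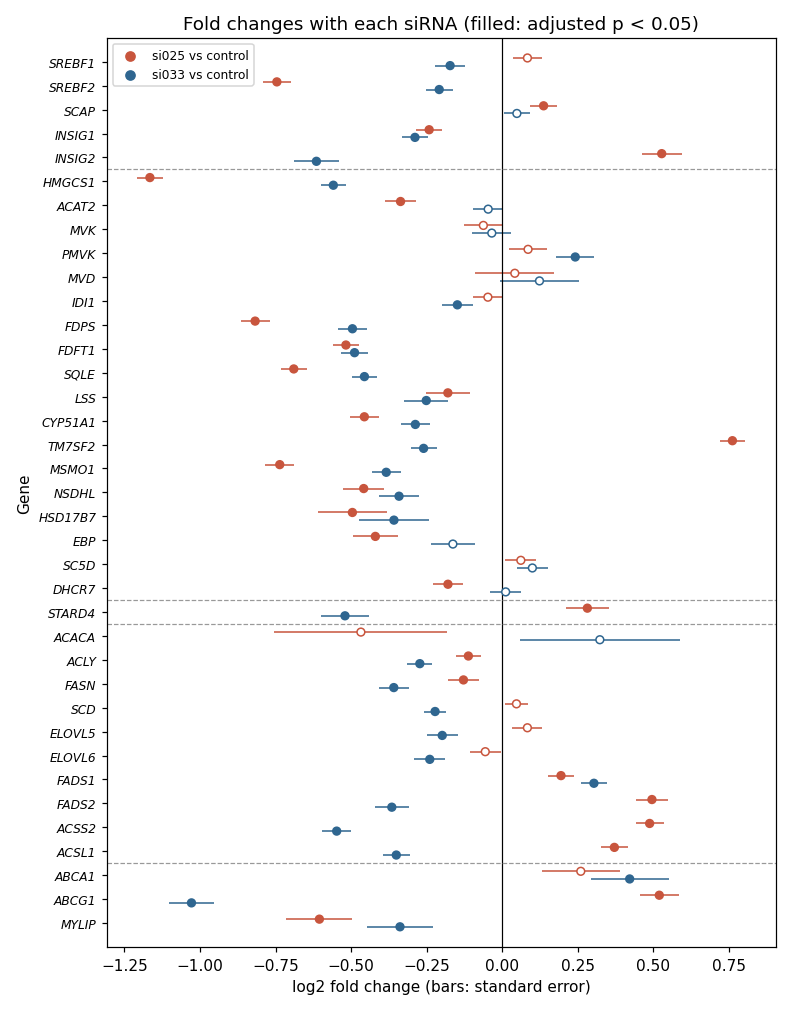
Log2 fold change of each member against control with si025 (red) and si033 (blue), with bars for the standard error and filled points for an adjusted *p* value under 0.05. Dashed lines part the branches. *HMGCS1* has the lowest value with si025 (-1.17) and *ABCG1* the lowest with si033 (-1.03).

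The siRNAs were then compared directly, a comparison that uses no control library. In total, 26 of 37 members were called (70.3%), 13 higher and 13 lower with si025, where 60.9% of all genes were called, 31.2% higher and 29.7% lower. The direction of most calls differed between the sterol and fatty acid branches. Of the 18 sterol enzymes, 55.6% were called, 9 lower and 1 higher with si025, with a median difference of -0.15. Of the 10 fatty acid genes, 8 were higher and 2 lower with si025, with a median difference of 0.25. The regulators (2 higher and 1 lower) and the efflux genes (1 higher and 1 lower) were mixed. At 1.5-fold or more, 18.9% of all genes were called. Of the members, 7 were higher with si025, where 12.3% of all genes were, and 2 were lower, where 6.61% were. The higher members were *ABCG1* (1.55, SE 0.07), *INSIG2* (1.14, SE 0.07), *ACSS2* (1.04, SE 0.05), *TM7SF2* (1.02, SE 0.04), *FADS2* (0.86, SE 0.05), *STARD4* (0.80, SE 0.08) and *ACSL1* (0.72, SE 0.04), with adjusted *p* values of 3.56e-09 or less. The lower members were *HMGCS1* (-0.61, SE 0.04, adjusted *p* = 1.51e-11) and *ACACA* (-0.79, adjusted *p* = 0.0158), and the latter was lost without si033 replicate 1 (adjusted *p* = 0.0652), si033 replicate 3 (0.2) or si025 replicate 3 (0.0775).

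Summed over the branch, the sterol enzymes took 2924 ± 28.3 CPM in the control libraries, 2301 ± 48.4 CPM in those of si025 and 2402 ± 59.1 CPM in those of si033, which is 21.3% and 17.9% less than control. The fatty acid genes took 4643 ± 118, 4681 ± 147 and 3868 ± 28.6 CPM (SD, n = 3 each). Here the si025 libraries, between 4570 and 4848 CPM, overlapped the controls, between 4507 and 4720 CPM, and the si033 libraries, between 3837 and 3894 CPM, lay below both. *SCD* and *FASN* made up most of this sum. Within a library, the summed level per length of sterol enzymes relative to fatty acid genes was 1.25 ± 0.0169 in control cells, 1.05 ± 0.0566 with si025 and 1.24 ± 0.0269 with si033. The si025 libraries lay below all others in this ratio, and the si033 and control libraries overlapped.

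Proliferation and luminal markers were measured beside these sums. All 10 proliferation markers were lower with si025, where 28.8% of all genes were. With si033 8 of them were lower and 1 was higher, where 27.8% and 26.9% of all genes were. Their sum was between 3471 and 3648 CPM in the control libraries, between 2164 and 2212 CPM in those of si025 and between 2611 and 2753 CPM in those of si033, so it was lowest with si025 and intermediate with si033. Of 10 luminal markers, among them androgen-regulated *KLK2*, 9 were higher with si025, where 32.9% of all genes were. With si033 3 of these luminal markers were higher and 4 lower, where 26.9% and 27.8% of all genes were. Their sum was between 5343 and 5429 CPM in the control libraries, between 7623 and 7983 CPM in those of si025 and between 4577 and 4775 CPM in those of si033. The luminal sum was thus on the same side of control as *INSIG2*, *TM7SF2*, *STARD4*, *FADS2*, *ACSS2*, *ACSL1* and *ABCG1* with each siRNA. The median log2 fold change of the 10 luminal markers was 0.29 with si025 and -0.03 with si033. Only some of these markers thus carried the lower sum with si033. The part of proliferation and of luminal genes in the changes of the members was not tested.

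**Figure D4:**
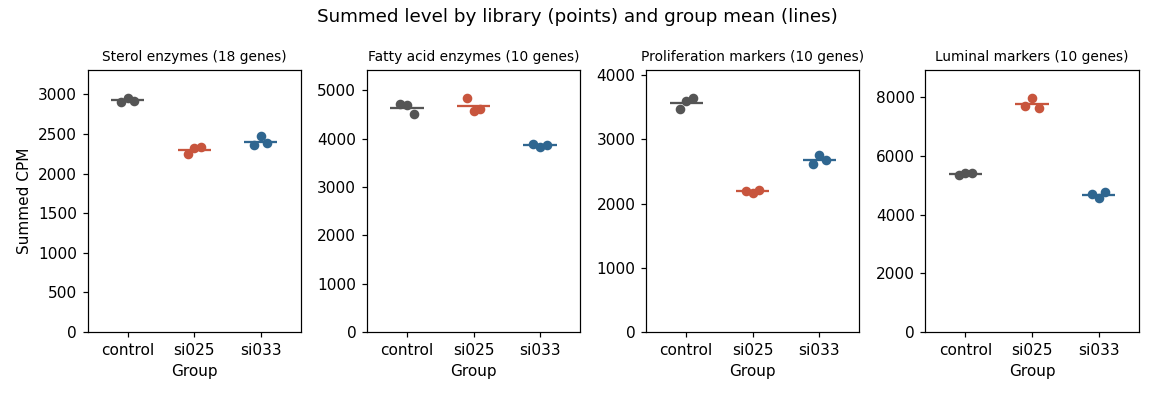
Summed CPM per library (points) and group mean (lines) for 18 sterol enzymes, 10 fatty acid genes, 10 proliferation markers and 10 luminal markers, with each axis starting at 0. The sums of sterol enzymes and proliferation markers are below control with both siRNAs, and that of fatty acid genes with si033. The sum of luminal markers is above control with si025 (mean 7772 CPM) and below it with si033 (4683 CPM). Of the 10 luminal markers, 3 were called higher and 4 lower with si033.

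Markers of other cell types were low. The sum of 6 fibroblast markers was between 16.9 and 19.2 CPM in the control libraries, between 36.5 and 43.9 CPM in those of si025 and between 8.98 and 11.2 CPM in those of si033. Nearly all of it was *LUM*, whereas the collagen gene *COL1A2* had no count in any control or si025 library. The 5 endothelial markers summed to between 0.927 and 2.34 CPM and the 6 immune markers to between 1.62 and 3.35 CPM over all libraries.

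Related lipid genes outside the 37 were counted by list. Over all lists, 59.8% of 97 tested genes were called with each siRNA, which is near the 61.7% and 54.8% of all genes with si025 and si033. By direction, 32.9% of all genes rose and 28.8% fell with si025, against 26.9% and 27.8% with si033. Of 8 genes of SREBP processing and degradation, 2 rose and 2 fell with si025, against 2 and 5 with si033. Of 18 other isoprenoid and sterol enzymes, 3 rose and 5 fell with si025, against 2 and 8 with si033. Of 10 genes of sterol storage, uptake and trafficking, 7 rose and 1 fell with si025, against 5 and 3 with si033. Of 4 genes for LXR receptors and their partners, 1 was higher with si025 and 2 with si033, and none was lower.

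In fatty acid and glycerolipid metabolism, 12 of 23 other elongation, desaturation and activation genes rose and 4 fell with si025, against 5 and 8 with si033. Of 14 glycerolipid synthesis genes, 7 rose and 1 fell with si025, against 6 and 3 with si033. Of 20 fatty acid oxidation genes, 8 rose and 5 fell with si025, against 4 and 5 with si033. The shares of all tested genes were 32.9% and 28.8% with si025, and 26.9% and 27.8% with si033. The elongase *ELOVL7*, at 34.9 CPM in control cells, was higher with si025 (0.82) and lower with si033 (-0.39). *DGAT2*, which makes triglycerides, rose from 10.4 CPM with si025 (0.51) and with si033 (0.90).

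*CYB5A*, a cytochrome that donates electrons to desaturases, was at 86.7 CPM in control cells, fell with si033 (-1.12, SE 0.06, adjusted *p* = 9.92e-14) and was at 0.11 with si025 (adjusted *p* = 0.0566). Further large changes were found in genes of low level, below 5 CPM in control cells. *SCD5* (2.74 and 1.02) and *GPAT3* (1.18 and 2.28) were higher with si025 and si033, and *CPT1C* (-1.01 and -1.06) was lower. *ACADL* was higher with si025 (1.37) and lower with si033 (-0.70). *HACD1* (1.95) and *ACSL6* (1.28) were higher with si025 and not called with si033 (-0.27 and -0.41, adjusted *p* of 0.602 and 0.152), and *AGPAT4* was lower with si033 (-1.17) and not called with si025 (-0.07, adjusted *p* = 0.77).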

How the data were processed

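RNA sequencing libraries of VCaP cells were analysed from the deposited counts, 3 libraries each for control, si025 and si033. The methods of the study state that read pairs were trimmed of adaptors and mapped to GRCh38 with HISAT2, for which the submitters' processing notes give version 2.1.0. Per the file headers, the deposited values are raw counts of read pairs, made with featureCounts 1.5.2 over exons summed by gene symbol on the sense strand of a RefSeq hg38 annotation, whereas the methods name GENCODE. Exon length was taken from the same files.

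Library totals ranged from 11649811 to 28492259 counts. Counts were tested with edgeR 4.0.16 in R 4.3.3 (quasi-likelihood test, TMM normalization, default expression filter, 1 fit of all 9 libraries with 3 group means). Benjamini-Hochberg adjustment ran over the 12810 genes that passed the filter, and a gene under 0.05 is referred to as called. This fit was also run on simulated data with 200 genes changed with si025 alone. That is a far smaller share than the 61.7% and 54.8% of genes called with si025 and si033. The simulation therefore cannot show how the fit behaves when most genes are called. Each standard error (SE) is the absolute log2 fold change divided by the square root of F. CPM and RPKM (CPM per kilobase of exon) used TMM-scaled totals. The alternatives were RLE and upper quartile scaling, no filter, DESeq2 1.42.0, the compared groups alone, a replicate block, offsets for gene length and GC content, and each library left out in turn.

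Every one of the 37 members could be named. Values in each library are given for those called with at least a 1.5-fold change in any comparison, for *SREBF1*, *SREBF2* and *INSIG1*, and for the highest gene per length of each branch. The 10 largest changes of related lists were named. Members and lists were chosen with earlier results of these data known. *IGF1R-AS1* itself was not analysed here. The study describes qPCR of the knockdown in VCaP cells, which was not used.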

Additional observations from a re-analysis of the deposited data

Results flagged for a closer look

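Because both siRNAs were aimed at the same transcript, each member was tested for a difference between their effects, with edgeR's quasi-likelihood test of si025 minus si033. By this test 26 members differed (70.3%), where 60.9% of all tested genes did. Above 0, meaning higher with si025, were *ABCG1* (1.55), *INSIG2* (1.14), *ACSS2* (1.04), *TM7SF2* (1.02), *FADS2* (0.86), *STARD4* (0.80), *ACSL1* (0.72), *ELOVL5* (0.28), *SCD* (0.27), *SREBF1* (0.26), *FASN* (0.23), *ELOVL6* (0.18) and *ACLY* (0.16). The first 7 were called on opposite sides of control, higher with si025 and lower with si033. The share of all genes with such opposite calls was not counted. Below 0 were *ACACA* (-0.79), *HMGCS1* (-0.61), *SREBF2* (-0.54), *MSMO1* (-0.35), *FDPS* (-0.32), *ACAT2* (-0.29), *MYLIP* (-0.27), *EBP* (-0.26), *SQLE* (-0.23), *DHCR7* (-0.19), *CYP51A1* (-0.17), *PMVK* (-0.16) and *FADS1* (-0.11). The call of *PMVK* was lost without si025 replicate 1 (adjusted *p* = 0.18) or 3 (0.0851) or si033 replicate 1 (0.164), and that of *FADS1* without si025 replicate 3 (0.119) or si033 replicate 2 (0.102) or 3 (0.0734). The call of *MYLIP* was lost in 9 of 16 alternatives. These were the fits without si025 replicate 1 or 2 or any si033 replicate (adjusted *p* from 0.0653 to 0.146), with no filter (0.0550), with the compared groups alone (0.0563), with a replicate block (0.0515) and with DESeq2 (0.0841). That of *ACACA* was lost without si025 replicate 3 (0.0775) or si033 replicate 1 (0.0652) or 3 (0.2) and with DESeq2 (0.179).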

How the results depend on the processing

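Of the calls against control, 22 of 26 with si025 and 25 of 29 with si033 held under all 16 alternatives, as did 22 of 26 between the siRNAs. The calls that were lost, with si025, si033 and between siRNAs in turn, were *SCAP*, *LSS*, *ACLY* and *FASN*, then *IDI1*, *LSS*, *HSD17B7* and *MYLIP*, and then *PMVK*, *ACACA*, *FADS1* and *MYLIP*. Calls gained under some alternative were *MVK*, *SC5D*, *ACACA*, *ELOVL5* and *ABCA1* with si025, *EBP*, *SC5D* and *ACACA* with si033, and *IDI1* and *SC5D* between siRNAs.

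Offsets for gene length and GC content turned the log2 fold change with si025 of *SREBF1* to -0.087 (adjusted *p* = 0.0152), *SCAP* to -0.019 and *MVD* to -0.034, with si033 that of *SCAP* to -0.0088 and *DHCR7* to -0.032, and between siRNAs that of *SCAP* to -0.010 and *LSS* to -0.0039. They also lowered the difference between siRNAs of *SREBF1* from 0.26 to 0.14, and moved the median of the regulators to -0.087 with si025 and -0.26 with si033, the median of the fatty acid genes between siRNAs to 0.22, and the number of members past 1.5-fold with si033 to 1. Upper quartile scaling moved the regulators' median with si033 to -0.18, and the split of all genes called with si033 to 3810 higher and 3195 lower, from 3449 and 3566.

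With each library left out, values that changed sign ranged from -0.034 to 0.13 for *MVD* with si025, from -0.098 to 0.015 for *MVK* and from -0.017 to 0.053 for *DHCR7* with si033, and between siRNAs from -0.078 to 0.012 for *MVK*, from -0.20 to 0.0087 for *MVD* and from -0.097 to 0.0067 for *SC5D*. The sterol median with si025 ranged from -0.40 to -0.34, the fatty acid median between siRNAs from 0.21 to 0.27, and the members past 1.5-fold with si033 from 1 to 3.

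The group mean of each gene was subtracted, and the remainders were correlated between libraries of different groups. Same-numbered replicates correlated between -0.0214 and 0.0729, and differently numbered ones between -0.120 and 0.106. In each group, however, replicate 1 had the fewest total counts and replicate 3 the most, so the numbers follow sequencing depth. The sample titles do not say what else the numbers stand for. With a replicate block, 26, 30 and 25 members were called with si025, with si033 and between siRNAs. *ACACA*, *ABCA1*, *MYLIP*, *MVD* and *HSD17B7* had fewer than 100 counts in at least 1 library, which limits their precision.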
